A study of Chlamydomonas reinhardtii with 2 samples.

Results

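Transcribed repeats of the green alga Chlamydomonas reinhardtii were followed through cDNA reads for which the aligner found more than 5 places on the genome. Each such read was put at its best listed alignment, scored as identity times the aligned share of the read, or the earliest listed one where several scored equally. A locus is a run of overlapping alignments placed in this way on 1 sequence, on either strand. Of 239585 aligned reads, 13785 had more than 5 places (5.75%, 95% interval 5.66 to 5.85), and they formed 2082 loci. All aligned reads, placed by the same rule, formed 14730 loci. The number of places chose the reads, so it is given below as a description.

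The study set nitrogen supply against nitrogen deprivation by 454 pyrosequencing of cDNA, with 1 biological replicate per condition. All cells were of strain dw15.1, with the genotype cw15, nit2, mt+. They grew in TAP medium under continuous light of about 80 µmol photons per square metre and second to 5000000 cells per mL, and were then kept for 48 hours in 50 mL of TAP with 10 mM ammonium (N-replete) or of TAP without nitrogen (N-deprived). Only the N-replete cells are described below, since the library of N-deprived cells was not analysed here. With 1 library there is no replicate error and no test. The intervals are exact Clopper-Pearson 95% intervals, which cover counting error only. They take reads as independent. PCR copies of a cDNA are not independent molecules, so the intervals may be too narrow even for counting error. All positions refer to the genome build of the deposited records, which has sequences numbered 1 to 17 and 1 named NA. Neither the name of this build nor what NA consists of is stated in the sources used here.

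Repeated sequence in a plant or algal genome takes several forms. Tandem and subtelomeric repeats stand in blocks, often toward chromosome ends. Transposable elements are dispersed, and the retrotransposons among them that have long terminal repeats carry the same sequence at both ends of an internal region. Members of gene families share exons and often intron positions. No gene, element or exon was assigned to any locus here, because no annotation of the files' build was used, so each locus is named by its position.

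The cDNA was primed with an oligonucleotide whose fixed part before its last degenerate bases is shown because many reads below carry leading bases that did not align to the genome. The capitals mark its T-rich stretch of 25 bases, which follows 23 other bases.
cDNA synthesis primer: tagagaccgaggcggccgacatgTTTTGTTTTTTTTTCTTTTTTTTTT
The deposited records hold no read sequences, so whether unaligned leading bases are primer was not tested.

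Reads with over 5 places aligned over shorter stretches and were spliced less often than other reads of this library. Their median identity was 98% (quartiles 94.1 and 99.6), against 99.4% for the 203010 reads with 1 place and 98.6% for the 22790 reads with 2 to 5 places. The median aligned length was 88 bases (quartiles 50 and 183), against 167 and 142 bases. A splice direction, which the aligner gives to an alignment with at least 1 recognised intron, was present in 296 reads (2.15%, interval 1.91 to 2.40). It was present in 20.96% of reads with 1 place and in 11.5% of those with 2 to 5, but in 120 of the 2968 reads with exactly 5 places (4.04%, interval 3.36 to 4.82). Strands were close to even, with 7196 plus and 6589 minus reads.

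Most of these reads had few places. Of the 13785, 11775 had 6 to 20 places, 1036 had 21 to 100 and 974 had more than 100, up to a highest number of 2214. Identity was similar in the 3 classes, with medians of 98%, 98.7% and 97.1%. Aligned length fell from class to class, with medians of 105, 49 and 21 bases. In the class above 100 places, 737 reads were plus and 237 minus, while strands were close to even in the other classes (5938 plus and 5837 minus, then 521 plus and 515 minus). Splice directions were found in 251 (2.13%), 40 (3.86%) and 5 (0.513%) of the reads of the classes. At the limit of the rule, the 5704 reads with 6 places had a median identity of 95.5% and a median aligned length of 74 bases, and the reads with 5 places, just outside, had 98.6% and 208 bases.

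The number of places had a separate peak near 200. Between 190 and 229 places there were 542 reads, against 91 between 150 and 189 and 114 between 230 and 299. Of these 542 reads, 448 had fewer than 30 aligned bases.

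**Figure D1:**
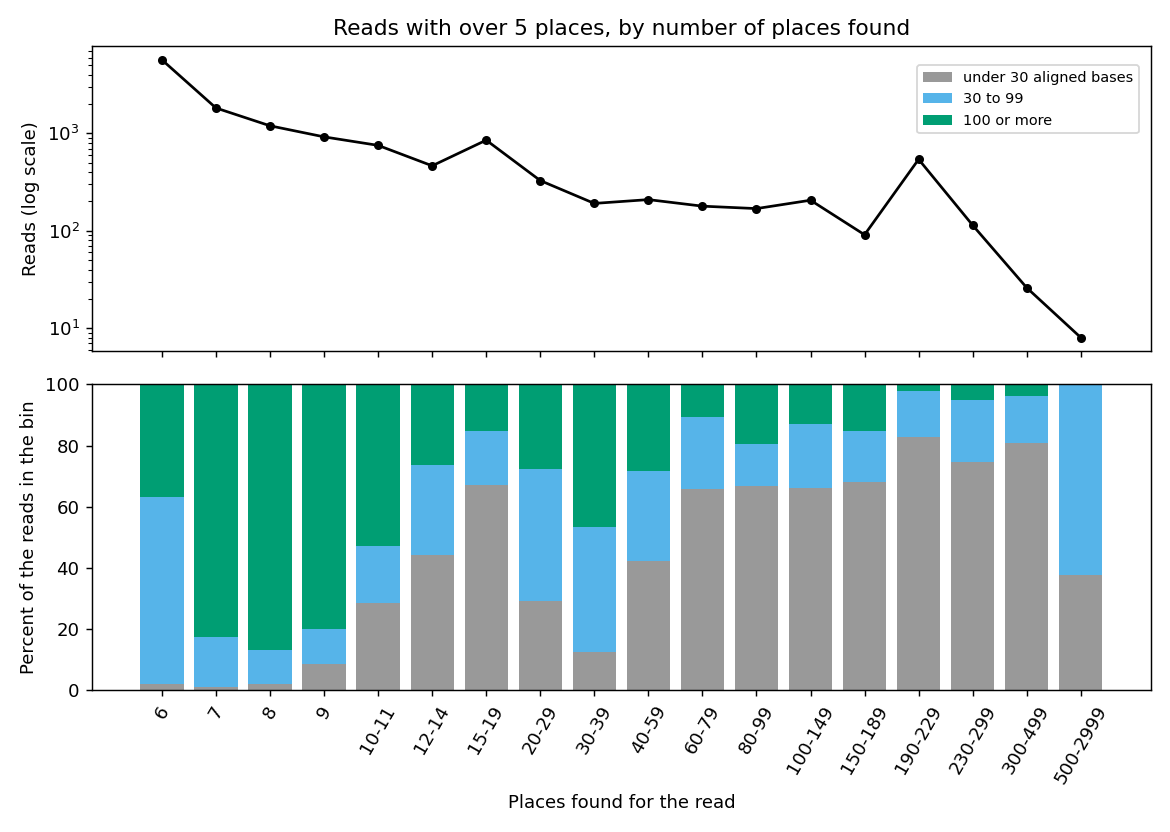
Reads by the number of places found (upper panel, reads on a log scale, bins of unequal width as labelled) and the percent of the reads of each bin with under 30, 30 to 99 and 100 or more aligned bases (lower panel). The 542 reads with 190 to 229 places stand above both neighbouring bins, and 448 of them had under 30 aligned bases.

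Aligned length separated reads that matched as a whole at many places from reads of which only short stretches matched. Among the 6387 reads with at least 100 aligned bases, all 5 listed places matched the same part of the read in 6102 (95.5%). Among the 4981 reads with 30 to 99 aligned bases this held for 3868 (77.7%), of which 3300 were at the locus with the most reads, described below. Without that locus it held for 568 of 1676 (33.9%, interval 31.6 to 36.2), and in 943 of these (56.3%) no other listed place matched the part that the best place matched. In the same length range, but with all loci kept, it held for 74 of 337 reads with 21 to 100 places (22.0%) and for 22 of 171 with over 100 (12.9%). Among the 2417 reads with fewer than 30 aligned bases it held for 171 (7.07%, interval 6.08 to 8.17), and in 1102 of them (45.6%) no other listed place matched that part. Without the locus with the most reads the shares with all 5 places on the same part were 94.3% at 100 or more aligned bases and 2.44% under 30. The label of a repeat is therefore borne out by the records for most matches of at least 100 bases. For most shorter matches outside the locus with the most reads it is not. Loci whose median aligned length was under 30 bases are called narrow below. There were 645 of them (31.0% of loci), with 2400 reads (17.4%, interval 16.8 to 18.1). The share of narrow loci was 21.9% of the 1176 loci with a median of 6 to 20 places, 35.3% of the 652 with 21 to 100 and 62.2% of the 254 with more than 100.

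A few loci held most of the reads. Of the 2082 loci, 1645 had a single read and 57 had at least 10, and these 57 held 11021 reads (79.9%). The 6 loci with at least 500 reads held 8432 (61.2%, interval 60.3 to 62.0), and the 10 loci with the most reads held 9417 (68.3%, interval 67.5 to 69.1). Among reads with more than 10 places, the 10 loci with the most reads held 35.0%. Because 8003 of the placed reads (58.1%) scored equally at another listed place, and 5376 at all 5 listed places, the read number of a locus is often that of a group of copies. Counting alignments with the same sequence, start, end and strand once left 7244 of the 13785 (52.5%), against 51.3% of reads with 1 place and 63.3% of reads with 2 to 5.

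**Figure D2:**
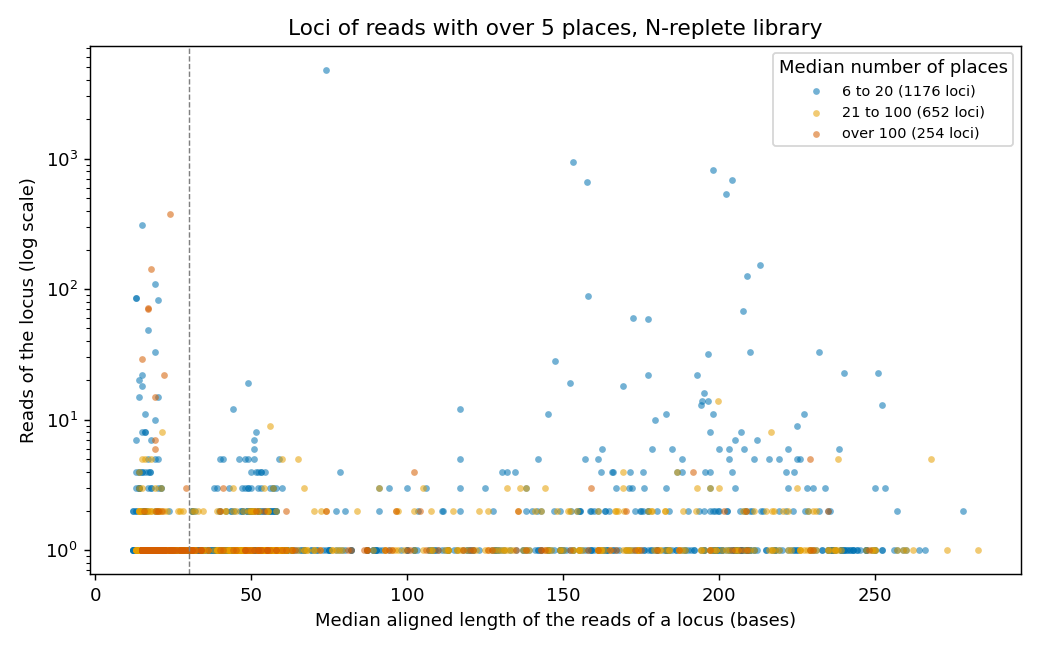
Each point is 1 of the 2082 loci, by the median aligned length of its reads (bases, horizontal axis) and its number of reads (log scale), coloured by the median number of places; the dashed line stands at 30 bases. The locus with 4786 reads lies at 74 bases, narrow loci stand left of the line, and all 7 loci with a median over 100 places and at least 10 reads stand left of it.

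The locus with the most reads lay near the end of sequence 14, between bases 4029757 and 4031150. It held 4786 reads (34.7%, interval 33.9 to 35.5), 2750 plus and 2036 minus, with a median of 6 places. All 4786 scored equally at another listed place and 4524 (94.5%) at all 5. Their median identity was 94.1% (quartiles 87.9 and 98.8), and their median aligned length 74 bases, within reads of a median of 133 bases. They took 1165 distinct alignments. None had a splice direction. A further 1433 reads with 2 to 5 places had their best place in this locus, and no read with 1 place did.

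Sharp left edges divided the reads of this 1394-base locus into 4 named products and a rest. At base 4030865, allowing 5 bases, 2773 reads had their left alignment edge (57.9%, interval 56.5 to 59.3), 1673 plus and 1100 minus. For minus reads the left edge is where the alignment ends in the order of the read. These 2773 reads had a median of 66 aligned bases at 92.2% identity. Their right edges were most often at 4030915 (637 reads), 4030930 (445) and 4030938 (386). The edges at 4030464, 4030119 and 4030768 had 425, 404 and 375 reads, with medians of 82, 95 and 145 aligned bases at 98.1%, 95.6% and 97.9% identity. The other 809 reads had a median of 172 aligned bases. The short product at 4030865 made up the larger part of the reads of the locus and had the lowest identity of the named products. Over the locus, identity differed by right edge. Reads ending exactly at 4030915, 4030930 and 4030938 on the right had medians of 51, 66 and 74 aligned bases at 94.1%, 86.4% and 82.4% identity. Whether the named products are separate transcripts was not tested. Of the 2750 plus reads of the locus, 1609 had exactly 39 unaligned leading bases. Among the 2036 minus reads, leads of 19 (244 reads), 24 (232) and 41 (231) bases were the commonest.

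The copies of these products stood at fixed distances. All 2683 reads with their left edge exactly at 4030865 were also listed at bases 4038962, 4106011 and 4112818 of sequence 14. These copies lie 8097, 75146 and 81953 bases further on. The last of these copies begins 1524 bases before the implied end of the sequence at base 4114342. The remaining listed place was mostly on sequence 8, at base 2496172 for 2555 of the reads (95.2%) and at base 4143506 for 111 (4.14%), and the implied end of sequence 8 is at base 4189090. Products with left edges at 4030119 and 4030464 had their copies on sequence 14 at distances of 8107, 75146 and 81963 bases. The first and last of these distances were thus longer than at 4030865, and the middle one was the same. In 4776 of the 4786 reads (99.8%), all 5 listed places lay on the same strand. The copy on sequence 14 between 4038185 and 4038990 formed a locus of its own with 153 reads (89 plus, 64 minus), at a median identity of 99% and a median aligned length of 213 bases.

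A neighbouring repeat linked the end of sequence 14 to the start of sequence 1. The locus between bases 2099 and 2999 of sequence 1 held 536 reads, 312 plus and 224 minus, at a median identity of 98.6% and a median aligned length of 202 bases. Of these reads, 535 scored equally at another listed place and 468 at all 5, so their placing on sequence 1 rests on the order of listing. All 536 reads were also listed on sequence 14 between 4039806 and 4040705. Of them, 493 (92.0%) were listed between 4106855 and 4107755, 445 (83.0%) between 4031720 and 4032607 and 184 (34.3%) between 4113662 and 4114311, the last ending 31 bases before the implied end of that sequence. On sequence 8, 385 (71.8%) were listed between 2496291 and 2497005 and 89 (16.6%) between 4145225 and 4145654. The listed places around the 4-megabase mark of sequence 14, 1658 in number, and those near the end of sequence 8 lay on the opposite strand to the locus on sequence 1, and the 385 places from base 2496291 of sequence 8 on lay on the same strand.

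These loci set the position of the reads along the sequences. The length of a sequence was implied by the difference between whole-genome and per-sequence positions in the records, which left out sequence 9 and was not used for NA. On the other 16 sequences, 5686 of 11167 reads (50.9%, interval 49.99 to 51.8) lay within 100000 bases of an end, of which 5028 at the end of sequence 14 and 573 at the start of sequence 1. The share was 3.42% for reads with 1 place and 22.4% for reads with 2 to 5. Without the locus with the most reads it was 14.1% (interval 13.3 to 14.98). With tied reads left out it was 2.58%, so the value rests on where tied reads are put. Sequence 14 held 5564 reads with over 5 places, which is 42.3% of all its aligned reads, NA held 2510, sequence 6 held 1689 and sequence 5, the lowest, held 42. The number of loci varied much less, from 10.7 per megabase on sequence 3 to 24.7 on sequence 12.

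The next 4 loci by reads were the outer pieces of a pair of similar units. On sequence 6 the pieces lay at 7308778 to 7309345 (692 reads, 488 plus and 204 minus) and at 7309719 to 7310439 (812 reads, 159 plus and 653 minus). On NA they lay at 6688923 to 6689660 (664 reads, 542 plus and 122 minus) and at 6689967 to 6690584 (942 reads, 177 plus and 765 minus). In both units the left piece was read mostly along the plus strand and the right piece mostly along the minus strand. From the outer edge of its left piece to that of its right piece, each unit spanned 1662 bases. These edges were set by the placed reads, so how far the repeated sequence itself extends was not tested. On sequence 6, 202 of the 692 reads of the left piece and 8 of the 812 of the right piece scored equally at another listed place. On NA these were 364 of 664 and 557 of 942. The read numbers are thus partly those of a group of copies, and whether both units are transcribed was not tested. Median identities ran from 98% to 98.9% and median aligned lengths from 153 to 204 bases, and no read with over 5 places was spliced at any of the 4.

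Reads with over 5 places covered the ends of the unit, and reads with 2 to 5 places covered its middle. The contrast follows in part from the rule. The edges of the unit are the outer edges of loci built from reads with over 5 places. The stretch between 2 separate loci holds few such reads by construction. The depth of reads with 2 to 5 places was not used to set the unit. On sequence 6, reads with over 5 places gave at least 99% of the depth in the first 300 bases and 95.4% to 97.5% in the last bins from 1300 bases on. Between 500 and 1100 bases from the left edge their part was between 0 and 2.19% in each bin of 100 bases, where depth came from reads with 2 to 5 places and reached 770.99 per base. The unit on NA had the same shape, with at most 2.99% between 500 and 1100 bases and with 93.2% to 97.5% from 1300 bases on. Over all reads, 4214 had their best place in the unit on sequence 6, of which 1509 with over 5 places, 2661 with 2 to 5 and 44 with 1. On NA the numbers were 3116, 1607, 1472 and 37.

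**Figure D3:**
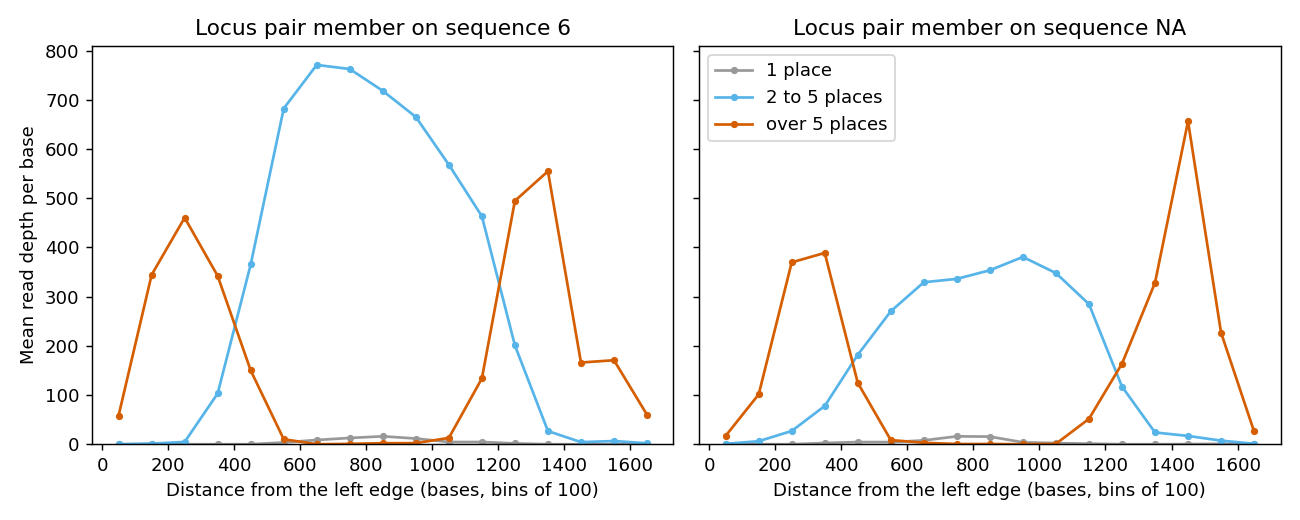
Mean read depth per base in bins of 100 bases along the unit on sequence 6 (left) and on NA (right), by the number of places. Each window runs 1662 bases between the outer edges of the end pieces, which were set by reads with over 5 places. The last bin is 62 bases wide. Reads with over 5 places form a peak at each end, and reads with 2 to 5 places fill the middle, with a depth of up to 770.99 on sequence 6 and 380.68 on NA.

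The end pieces of a unit matched each other in the same orientation. On sequence 6, 267 reads of the left piece were also listed in the right piece, all 267 on the same strand and all exactly 1176 bases further on. In the other direction, 47 of the 812 reads of the right piece were listed in the left piece, all on the same strand. Their commonest offset was -1176 bases, but only 7 had exactly this offset. On NA, 163 reads of the left piece were listed in the right piece, all on the same strand at a distance of 1190 bases. In the other direction, 88 of the 942 reads of the right piece were listed in the left piece, 87 of them on the same strand. Of these 87, 73 had an offset of exactly -1190 bases. The commonest first base of plus reads on sequence 6 was 7308911 (304 reads, 299 of them plus) and the commonest right edge in the right piece was 7310174 (109 reads, 105 of them minus), which lie 1264 bases apart. Moved by 1176 bases, the left-hand one falls on 7310087 in the right piece, and the right-hand one falls on 7308998 in the left piece, so the span between these edges holds 88 bases of the shared sequence at both of its ends. Leads of unaligned bases also differed by end. On the left piece of sequence 6, 195 of 488 plus reads had 35 unaligned leading bases, and on its right piece the commonest leads above 0 among 653 minus reads were 49, 50 and 51 bases (87, 82 and 66 reads). On NA the pattern was mirrored, with 35 bases in 336 of 765 minus reads of the right piece and 51, 50 and 49 bases in 72, 70 and 60 of 542 plus reads of the left piece. Of the reads of the right piece of NA, 836 were also listed in the left piece of sequence 6, all 836 on the opposite strand.

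The ends of the unit also matched places elsewhere. Another 3 places, chosen after their values were seen, recurred among the listed places of all 4 pieces. They lie on sequence 14 at 2801578 to 2801932 (60 placed reads), on sequence 13 at 6407953 to 6408433 (28 reads) and on sequence 4 at 718860 to 719282 (11 reads). Each was listed by 68.2% to 94.6% of the reads of each piece. Reads of the left and of the right piece of sequence 6 fell on the same stretch there. On sequence 14 the commonest offset was -4507231 bases for the left piece (583 of 586 listed places) and -4508407 bases for the right piece (621 of 747), which differ by the same 1176 bases. The middle of the unit was listed near some of these places. Of 1506 reads that lay wholly between 500 and 1100 bases from the left edge of the unit on sequence 6, 994 (66.0%, interval 63.5 to 68.4) were listed within 2000 bases of the place on sequence 4 and 151 (10.03%, interval 8.56 to 11.7) of the place on sequence 13. None was listed near the place on sequence 14, which allows a share of up to 0.245% by the interval. For 788 such reads of the unit on NA the numbers were 546 (69.3%), 154 (19.5%) and 0. Most middle reads were also listed in the other unit, 1427 of the 1506 (94.8%) on NA and 692 of the 788 (87.8%) on sequence 6. The 3 places, the 4 pieces and 5 other loci formed a group of 12 loci on 7 sequences with 3228 reads, a median of 8 places and no spliced read, where loci are grouped when their reads share listed places.

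Narrow loci formed the other abundant kind, and most were read on 1 strand. Of the 57 loci with at least 10 reads, 15 had at least 95% of their reads on 1 strand (26.3%, interval 15.5 to 39.7). All 15 were among the 21 narrow loci, and none was among the 36 wider ones. With equal alignments counted once, the share of loci with at least 95% on 1 strand was 2.56%. The loci of 14 to 26 bases described next hold between 1 and 12 distinct alignments each. A locus of 21 bases on sequence 2, between 3126281 and 3126301, had 312 reads, all minus, with a median of 17 places. Its alignments had a median of 15 bases within reads of 58 bases, took 12 distinct forms, and most often followed 24 unaligned leading bases (186 reads). On sequence 15 at 805548 to 805567, 110 reads were all minus, with a median of 19 aligned bases at 89.5% identity. The shortest locus with at least 50 reads was 14 bases wide, on sequence 1 at 1064839 to 1064852, with 86 reads, all plus, a median of 13 aligned bases and a lead of 23 bases in 78 reads. The locus on sequence 16 at 1371460 to 1371479 had 86 reads, 82 of them minus, with a median of 13 aligned bases. All reads with a best place in the loci on sequences 2, 15, 1 and 16 just named had over 5 places.

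**Figure D4:**
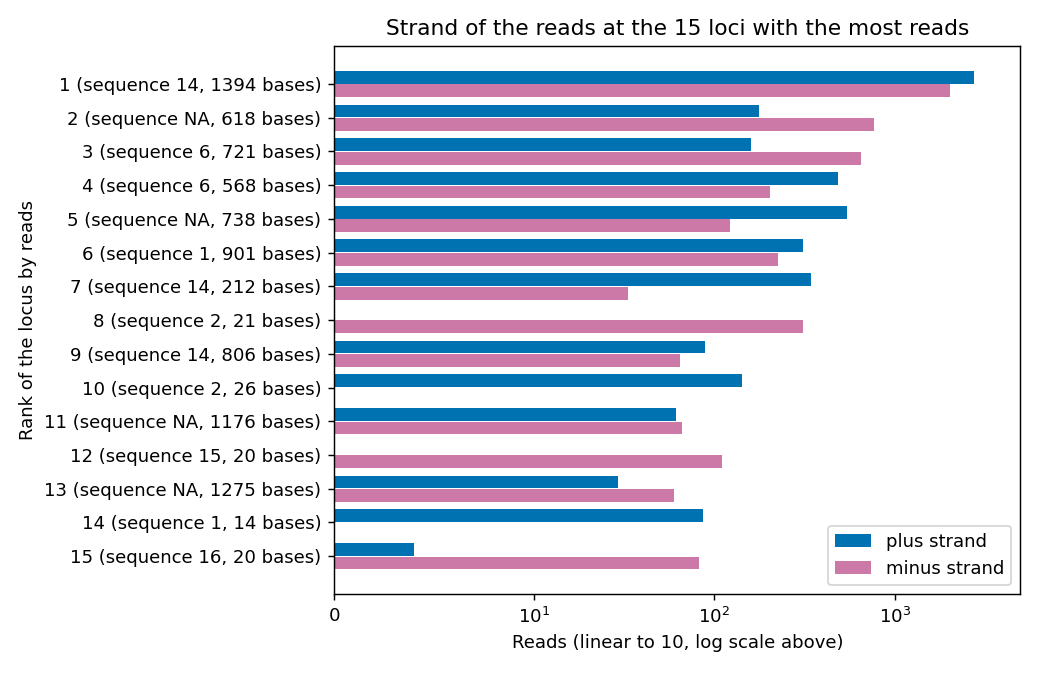
Reads along the plus and the minus strand at the 15 loci with the most reads, with the sequence and width of each locus (axis linear up to 10 reads and on a log scale above). The 5 loci of 14 to 26 bases have nearly all reads on 1 strand, and wider loci have reads on both.

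The peak near 200 places came from narrow matches in reads of similar length. The 563 reads with over 150 and up to 250 places and under 30 aligned bases had a median length of 72 bases (quartiles 69 and 78), with a median of 18 aligned bases that lay between 23 leading and 28 trailing unaligned bases. They were placed at 63 loci and took only 113 distinct alignments, so many of them may be copies of the same cDNA fragment, which was not tested. Their listed places recurred, and different places matched different parts of the read. Of the 563, 492 (87.4%) were listed on sequence 2 at 7581444 to 7581461, where read bases 3 to 19 matched, and 478 (84.9%) on sequence 2 at 3569289 to 3569304, where read bases 2 to 17 matched. On sequence 7, 402 (71.4%) were listed at 2233804 to 2233820 by read bases 9 to 24, and on sequence 2, 330 (58.6%) were listed at 8122487 to 8122512 by read bases 28 to 45, as medians. The last of these is a named locus with 143 reads, all plus, a median of 201 places and a lead of 27 bases in 119 reads. The highest median number of places among loci with at least 10 reads, 212, was at the locus on sequence 1 at 5229220 to 5229236, with 72 reads, all plus, 17 aligned bases and a lead of 22 bases in 69 reads.

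The narrow locus with the most reads lay on sequence 14 at 3203904 to 3204115. It had 377 reads with over 5 places, 344 plus and 33 minus, with a median of 203 places, 24 aligned bases at 93.9% identity and a read length of 75 bases. They were 15.4% of the 2451 reads with a best place there. The nearby locus at 3204394 to 3204520 had 9 reads with a median of 86 places and 56 aligned bases, 4 plus and 5 minus.

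Long matches to many places were rare and dispersed. In all, 58 reads had both more than 100 places and at least 100 aligned bases, and they lay at 44 loci on 13 sequences, 34 of these loci with a single read. Their median identity was 98% (quartiles 96.2 and 99.2), their median aligned length 169.5 bases and their number of places 101 to 355 with a median of 154.5. They ran in both directions, 24 plus and 34 minus, and 1 was spliced. In 46 of them (79.3%, interval 66.6 to 88.8) all 5 listed places matched the same part of the read. The locus with the most of them, chosen after its values were seen, had 5 reads on sequence 1 at 6989605 to 6989831, with a median of 213 places, 229 aligned bases and an identity of 98.2%. The highest number of places, 2214, belonged to 1 read on sequence 8 at 4062359 to 4062437, with 81 aligned bases at 92.6% identity.

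Between 21 and 100 places, loci were likewise thinly read. The locus of this class with the most reads was on sequence 16 at 2554912 to 2555181, with 14 reads (10 plus, 4 minus), a median of 31 places, 199.5 aligned bases and an identity of 96.3%. It belonged to the group with the most loci, 19 loci on 7 sequences with 46 reads and a median of 32.5 places, of which 1 read was spliced. Another locus on sequence 16, at 1855947 to 1856202, had 8 reads (7 plus, 1 minus), a median of 32.5 places and an identity of 99.1%. By reads, the locus beside the narrow locus of sequence 14, with 9 reads, comes between these loci of sequence 16 and was described above.

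Splicing was concentrated at few loci. Of the reads with over 5 places, 291 had a gap of at least 20 bases with a splice direction, at 121 loci, of which 29 had at least 2 such reads. They held 153 distinct introns with a median length of 191 bases (quartiles 148 and 309), against 218 bases (quartiles 151 and 311) for 9218 introns of reads with 1 place. The introns were seen in at least 2 reads for 41 and in at least 10 reads for 6. Restricting the comparison to reads with at least 100 aligned bases and leaving out the most abundant locus of the library, 230 of 6387 reads with over 5 places were spliced (3.60%, interval 3.16 to 4.09), against 19.9% of 12662 with 2 to 5 places and 39.0% of 106605 with 1 place. With the most abundant locus kept, the last values were 18.4% of 13684 and 22.0% of 189026, and that of reads with over 5 places did not change. Also without the locus at the end of sequence 14, the shares were 4.57% (of 5028) for over 5 places and 22.1% for 2 to 5. The lower share of spliced reads was thus also present among reads with at least 100 aligned bases. It was uneven over the groups of loci, taken with reads of all aligned lengths. In the groups of 3228 and 607 reads, of the units and of the start of sequence 1, no read was spliced. In the groups of 372, 100 and 57 reads described below, 30.9%, 46% and 36.8% were. Reads within a class share loci, and no test was made.

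The locus with the most spliced reads lay on NA at 4070168 to 4071442, with 89 reads (29 plus, 60 minus), of which 51 were spliced along a plus-strand transcript. Its introns of 148, 178 and 253 bases were seen in 23, 19 and 14 reads. In 44 of the 51 reads the intron was present only at this place and at none of the other 4 listed places. The median identity of the spliced reads was 98.6% here and 93.1% at the other listed places. Reads with over 5 places were 5.21% of the 1707 reads with a best place in this locus.

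At other abundant spliced loci, the number of introns was the same at the other listed places to different degrees. An equal number does not show that the introns are the same. On NA at 6673243 to 6674418, 127 reads (61 plus, 66 minus) included 40 spliced along a minus-strand transcript, with introns of 214 bases (36 reads) and 234 bases (4 reads). In 10 of the 40 the number of introns was the same at all 5 places, and in none was it present only here. On sequence 12 at 7698924 to 7699859, 68 reads (48 plus, 20 minus) included 11 with an intron of 227 bases, and all 11 had the same number of introns at all 5 places. Identity was 99.6% at that locus and 85% at the other places. These 3 loci belonged to 1 group of 10 loci on 4 sequences with 372 reads, 115 of them spliced at 6 loci. Over all 291 spliced reads, the number of introns was the same at all 5 places in 131 (45.0%, interval 39.2 to 50.9), the intron lengths were the same in 43 (14.8%), and an intron was present at a single place in 114 (39.2%).

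A group of 16 loci on 9 sequences had the same succession of short exons and introns at several loci. It held 100 reads with a median of 11 places and a median identity of 99%, and 46 of the reads were spliced, at 10 loci. On NA at 7921304 to 7922394, 22 reads (12 plus, 10 minus) included 11 spliced along the plus strand, with introns of 109, 163 and 165 bases in 8, 4 and 3 reads. On NA at 9792244 to 9793063, 14 reads (6 plus, 8 minus) included 11 spliced along the minus strand, with introns of 109, 173 and 164 bases in the order of the transcript, in 10, 7 and 3 reads. In the spliced reads of both loci, all 11 had the same number of introns at all 5 listed places. Over the group, an intron of 109 bases was found at 6 loci in 32 reads. Of the 23 internal exons seen whole within a read, 12 were 47 bases long, at 5 loci, and 10 were 67 bases long, at 5 loci. The introns beside these exons, apart from the 109-base one, had lengths from 154 to 719 bases, most of them between 161 and 173.

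A separate group of 15 loci on 8 sequences showed another succession. It held 57 reads, of which 21 were spliced, at 8 loci. An intron of 95 bases was found at 4 loci in 15 reads. It was followed by an exon of 56 bases in 5 of the 8 internal exons seen, at 3 loci, and of 57 bases in 1. Introns of 158 to 172 bases followed these exons. Of the loci drawn, all but those at 7921304 and 9792244 on NA were chosen after their values were seen, as the loci of the groups with the most spliced reads.

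**Figure D5:**
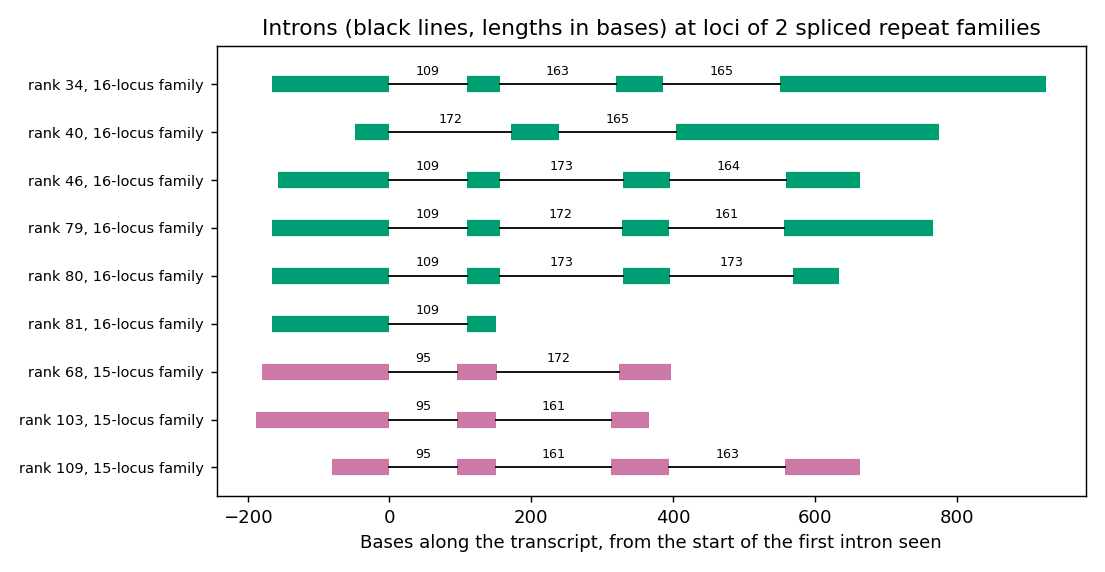
Introns (lines, with their lengths in bases) and the sequence around them (boxes) at loci of the group of 16 loci (upper 6) and of the group of 15 loci (lower 3), along the transcript from the start of the leftmost intron seen, with each locus named by its rank in reads. The 109-base intron leads at 5 of the upper 6 loci, and the 95-base intron at all 3 lower ones.

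Groups of loci accounted for most of the reads. When loci were grouped by shared listed places, requiring at least 50 aligned bases and 80% of the bases of a read in common, 98 groups were found with 382 loci. These loci held 10407 reads (75.5% of those placed). A single linking read joined 2 loci, and all reads of a joined locus were counted, also those that did not meet the limits. A group of 2 loci on sequence 14, for example, held 386 reads with a median of 24 aligned bases. Of the groups, 53 had 2 loci and 19 had at least 5. The group at the end of sequence 14 had 4 loci and 4947 reads, that of the units on sequence 6 and NA 12 loci and 3228 reads, and that of the start of sequence 1 had 6 loci and 607 reads, and no read of these 3 groups was spliced. By comparison, the group with the most loci, 19, held 46 reads. Reads of several copies cannot be told apart where they score equally, so which copies are transcribed was not tested.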

How the data were processed

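For the N-replete library, the deposited file gives alignment records of single 454 reads, with places found, identity, aligned share, positions, strand and exons, and no expression unit. The authors aligned with GMAP version 2007-09-28, with maximum intron and total intron options of 1000 bases, per the file headers; GSNAP is named in the submitters' processing notes. Per the labels' protocols, SMART cDNA was amplified by PCR, cut with SfiI and size-fractionated, and these steps can change the abundance of a product. The file lists 333296 records of 239585 reads (50972904 bases), with at most 5 places per read and 5 for every read with over 5 places. Further places are seen only as a number.

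Reads were placed and joined into loci by the rule given at the start, with tied reads kept and introns included in the overlap. Gaps of at least 20 bases with a splice direction were called introns. Loci were grouped when a read placed at one had another listed place at the other that held at least 50 aligned bases and 80% of the same read bases. Named loci are the 15 with the most reads, the 3 with the most reads in each class of median places, the 5 with the most spliced reads, the longest and shortest with at least 50 reads, and the one with the highest median number of places among those with at least 10 reads. The members, lists and rules were chosen with earlier results of these data known. The limits of 30 and 100 aligned bases, the range of 150 to 250 places, the product edges, the grouping and the 2000 bases around a place were set after the values were seen. The 9 alternatives in the closing section were chosen at the start, and 1 was added. With 13785 reads, the intervals of shares of all placed reads are narrow, PCR copies aside, and a locus of 10 reads is imprecise. The code was tested on simulated alignments. Tools were matplotlib 3.10.9, scipy 1.17.1, numpy 2.4.6 and Python 3.11.15.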

Additional observations from a re-analysis of the deposited data

How the results depend on the processing

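Of 70 values recomputed (7 results under 9 alternatives and 1 chosen after seeing the data), 30 stayed within the limits set for a change and 40 moved; the causes of the moves were not tested beyond what an alternative removes by construction. The 2082 loci became 3186 with ties split over their places, 769 with identity of at least 95% and aligned share of at least 90%, and 1158 with at least 50 aligned bases. The 57 loci with at least 10 reads became 36 without tied reads, 21 with the identity limits, 34 with at least 50 aligned bases and 29 with over 10 places. The share in the 10 loci with the most reads, 68.3%, was 66.2% with the last of equal places, 52.9% without tied reads, 59.3% with ties split, 62.3% with the identity limits, 79.5% with at least 50 bases, 54.6% with equal alignments counted once, 35.0% with over 10 places, 61.1% with strands joined separately and 52.9% without the locus with the most reads. The share of spliced reads, 2.15%, was 4.17% without tied reads, 7.18% with the identity limits, 2.78% with at least 50 bases, 3.89% with equal alignments counted once, 3.75% with over 10 places and 3.29% without the locus with the most reads. The median identity, 98%, was 98.6% without tied reads, with equal alignments counted once or without the locus with the most reads, and 99% with the identity limits or over 10 places. The share near a sequence end, 50.9%, was 12.2% with the last of equal places, 2.58% without tied reads, 40.97% with ties split, 34.7% with the identity limits, 62.7% with at least 50 bases, 36.8% with equal alignments counted once, 2.78% with over 10 places and 14.1% without the locus with the most reads. The share of loci read on 1 strand, 26.3%, was 0 with the identity limits, 2.94% with at least 50 bases, 2.56% with equal alignments counted once, 51.7% with over 10 places and 100% by construction with strands joined separately. Leaving out the locus with the most reads was chosen after seeing the data.

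No paired analysis was possible because 1 library was analysed and no result comes from a test. At most 5 places per read are listed, so ties with unlisted places, and copies beyond the fifth, go unseen. A locus with few reads has a wide counting interval, and 1645 of the loci rest on 1 read.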
